A study of Mus musculus with 12 samples.

Results

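The 7 dual-specificity phosphatase genes Dusp1, Dusp2, Dusp4, Dusp5, Dusp6, Dusp10 and Dusp11 were described in sorted mouse invariant natural killer T (iNKT) cells, and were taken by symbol from a table of 24781 genes. iNKT cells are T cells with a near-invariant T cell receptor that recognises lipid antigens on CD1d, and CD244 is a receptor of the SLAM family shared with natural killer cells. RNA was measured in 12 libraries of 100 cells each from mice of 6 weeks, with 3 libraries in each of 4 groups: lung CD244+, lung CD244-, thymus CD244+ and thymus CD244-. All 4 groups were gated alike on TCRbeta, NK1.1, the CD1d tetramer and CXCR6 and differed in tissue and in CD244. The labels used here name no strain, genetic change or treatment. They describe the 3 libraries of a group as separate preparations without saying whether they came from separate animals. A p-value therefore concerns only the spread between such preparations, which may be technical and was pooled over groups and genes as described below.

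Mitogen-activated protein (MAP) kinases carry signals from the T cell receptor, cytokine receptors and stress to transcription, and are active while phosphorylated on a threonine and a tyrosine. MAP kinase phosphatases of the DUSP family remove both phosphates, and several of their genes are transcribed in response to the same signals, which makes them negative feedback regulators. Dusp1, Dusp2, Dusp4 and Dusp5 encode inducible nuclear phosphatases, of which Dusp1 acts on p38, JNK and ERK and Dusp5 on ERK. Dusp6 encodes a cytosolic ERK phosphatase, Dusp10 encodes a phosphatase of p38 and JNK that restrains T cell activation, and Dusp11 encodes an atypical member whose substrates are RNA 5′ ends.

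The promoters of the 3 members with the clearest differences between tissues are shown with the short motifs found in them, from 250 bases before to 50 bases after the RefSeq start site (GRCm38.p6, 300 bases each, 5′ to 3′ on the strand of the gene). They are Dusp1 at chr17:26508423-26508722 on the minus strand, Dusp10 at chr1:184034131-184034430 on the plus strand and Dusp2 at chr2:127335909-127336208 on the plus strand.
Dusp1: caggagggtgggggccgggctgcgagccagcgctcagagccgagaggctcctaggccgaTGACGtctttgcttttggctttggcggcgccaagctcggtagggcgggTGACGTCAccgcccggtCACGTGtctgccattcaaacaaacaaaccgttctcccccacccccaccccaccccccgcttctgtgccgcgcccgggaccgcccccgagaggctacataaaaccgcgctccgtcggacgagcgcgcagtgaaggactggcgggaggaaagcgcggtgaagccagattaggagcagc
Dusp10: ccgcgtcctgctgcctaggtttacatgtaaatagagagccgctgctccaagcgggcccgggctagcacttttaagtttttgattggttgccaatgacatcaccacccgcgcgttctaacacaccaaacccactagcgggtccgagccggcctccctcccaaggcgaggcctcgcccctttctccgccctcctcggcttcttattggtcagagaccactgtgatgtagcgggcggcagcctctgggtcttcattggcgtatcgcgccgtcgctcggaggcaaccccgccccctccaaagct
Dusp2: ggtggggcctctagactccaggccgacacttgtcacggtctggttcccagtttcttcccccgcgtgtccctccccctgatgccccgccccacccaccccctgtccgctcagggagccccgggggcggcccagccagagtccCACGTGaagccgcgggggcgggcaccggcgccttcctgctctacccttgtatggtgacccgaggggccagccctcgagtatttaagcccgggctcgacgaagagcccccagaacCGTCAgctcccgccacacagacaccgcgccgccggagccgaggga
Capitals mark matches on either strand to TGACGTCA (the cyclic AMP response element), its core TGACG (also part of the full element), the AP-1 site TGANTCA, the string TATAAA (the TATA box), CACGTG (an E-box) and the CArG box of the serum response element. Counted from the start site, the Dusp1 promoter held the full element at -143 to -136, a separate core at -191 to -187 and an E-box at -126 to -121. The Dusp2 promoter held an E-box at -109 to -104 and the core at 5 to 9, and none of these letter strings was in the Dusp10 window. Among 32851 RefSeq promoters of the same length, 1.79% held the full cyclic AMP response element, 20.8% its core, alone or within the full element, and 7.15% the E-box, while 7.81% held the AP-1 site, 13.6% the TATA box and 1.63% the CArG box. Promoters of 6 of the 7 members were found in the RefSeq table, and a match is a description of the letters only.

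Each library yielded 42520 to 51436 RNA molecules in lung CD244+ cells, 29696 to 32196 in lung CD244- cells, 56615 to 71789 in thymus CD244+ cells and 60120 to 67478 in thymus CD244- cells. The authors scaled these molecule counts to deposited units, in which the 6 thymus libraries each total 26890.5 and the 6 lung libraries each 19342.9. Cd244 itself, the sorted marker, had 2 molecules in the lung CD244+ libraries and 0 in the lung CD244- libraries, and 13 in the thymus CD244+ libraries and 0 in the thymus CD244- libraries. The lung CD244+ libraries stood apart from the others. The 15 macrophage and monocyte marker genes summed to 83.1 to 165 molecules per 10000 there, against 1.01 to 3.65 in lung CD244-, 1.42 to 2.09 in thymus CD244+ and 1.65 to 1.93 in thymus CD244- libraries. The 6 genes of MHC class II presenting cells summed to 49.7 to 128 molecules per 10000 there, against at most 0.621 in any other library, and all 5 tested were higher than in lung CD244- cells. The summed T cell receptor complex genes of the lung CD244+ libraries were 19.0 to 31.6 molecules per 10000, against 45.1 to 51.9 in lung CD244- libraries. Cxcr6, for which all cells were gated, had 15, 1 and 1 molecules in the 3 lung CD244+ libraries, against 10, 13 and 15 in the lung CD244- libraries. Values of lung CD244+ libraries are therefore given beside these markers, and library 1, which had the lowest macrophage sum and the highest Cxcr6 of the 3, is also set alone against the other groups. In such bulk samples, fewer cells of a type and less RNA per cell cannot be told apart.

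In CD244- cells, Dusp1 and Dusp10 rose in lung relative to thymus under every scaling tried. Dusp2 and Dusp11 fell there in deposited units, but neither passed at 1 common total (limma adjusted p = 0.125 and 0.235), with molecules thinned to the shallowest library or by edgeR. In deposited units, 4 of the 5 tested members were past the threshold (limma, Benjamini-Hochberg adjusted p under 0.05), where 10.7% of the 5138 tested genes were, 2.18% higher and 8.52% lower. At a common total 2 members, Dusp1 and Dusp10, were past it, with 160 of all tested genes higher and 151 lower, against 112 higher and 438 lower in deposited units. With thinned molecules the same 2 members were past it, with 108 genes higher and 79 lower. In the same comparison and in deposited units, 2 members were higher in all lung than in all thymus libraries, as were 4.75% of tested genes. Lower without overlap were 3, as were 20.7% of tested genes. As shares of molecules, Dusp2 stayed lower without overlap, while Dusp6 and Dusp11 overlapped. In CD244+ cells, 1 of 5, Dusp1, was past it and higher in lung, where 14.9% of all tested genes were past it, 5.27% higher and 9.61% lower in deposited units. At a common total it was also Dusp1, with 352 genes higher and 204 lower, against 271 higher and 494 lower in deposited units. Between CD244+ and CD244- cells of the lung, 1 of 5, Dusp10, was past it and lower in CD244+ cells, where 8.43% of all tested genes were past it and 2.82% past it and lower. Between CD244+ and CD244- cells of the thymus, 0 of 5 members were past it by limma, with 0 at an unadjusted p under 0.05 and 0 of 4 by edgeR, where 0.409% of all tested genes were. The remaining members, Dusp4 and Dusp5, had no signal to test.

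**Figure D1:**
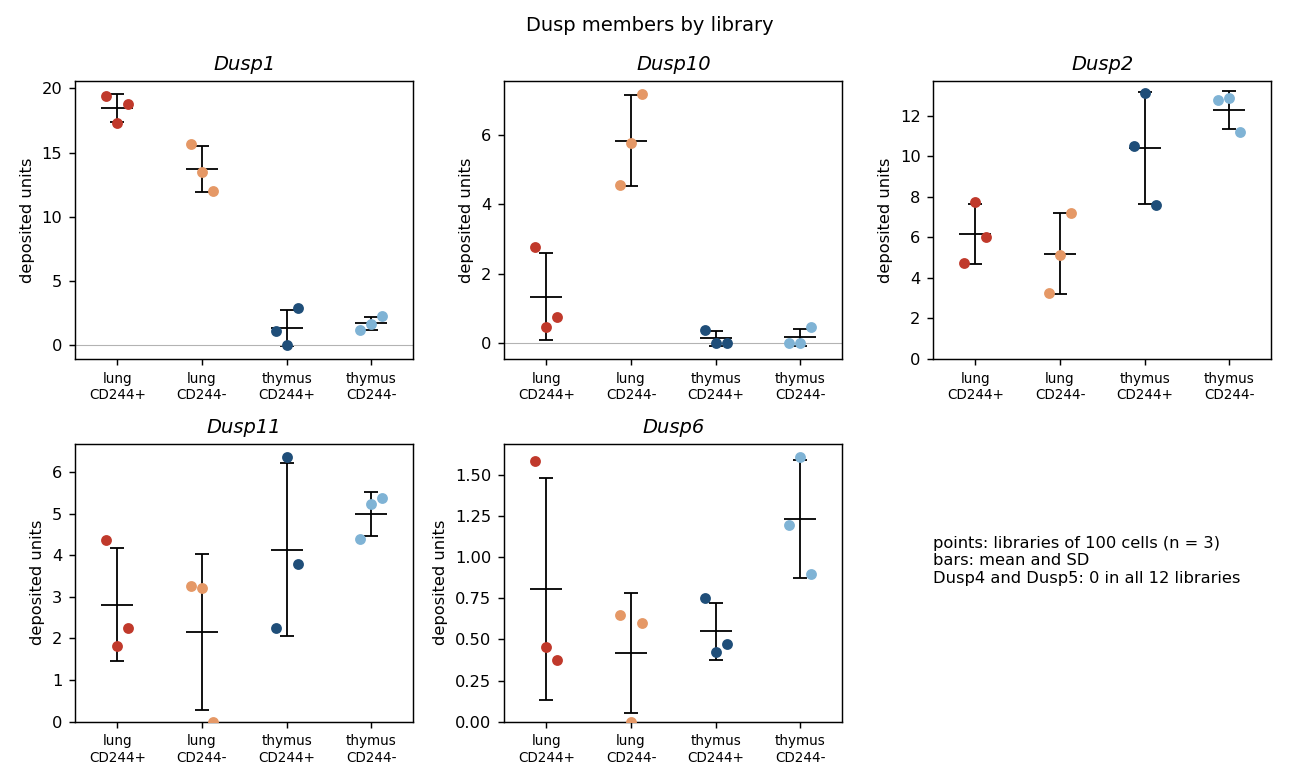
Deposited units of the 5 members with signal (vertical axes, one scale per gene) in each library of lung CD244+, lung CD244-, thymus CD244+ and thymus CD244- cells; points are libraries of 100 cells, bars the mean and SD (n = 3). All 6 lung libraries lie above all 6 thymus libraries for Dusp1, Dusp10 is highest in the 3 lung CD244- libraries, and Dusp4 and Dusp5 are at 0 in all 12.

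Dusp1 (chr17:26505590-26562128, minus strand, mm10, protein coding), the immediate early phosphatase of p38, JNK and ERK, had 19.4, 17.3 and 18.8 units in the lung CD244+ libraries and 15.6, 13.5 and 12.02 units in the lung CD244- libraries. In the thymus it had 1.12, 0 and 2.85 units in CD244+ libraries and 1.20, 1.61 and 2.24 units in CD244- libraries. Every lung library was above every thymus library, and within the lung the CD244+ libraries were all above the CD244- libraries. Group means were 18.5 ± 1.09 units in lung CD244+, 13.7 ± 1.82 in lung CD244-, 1.32 ± 1.44 in thymus CD244+ and 1.68 ± 0.524 in thymus CD244- cells (SD, n = 3 each). The 2 thymus groups, the lowest, did not differ beyond their spread. As molecules, the 3 libraries together held 137 in lung CD244+ and 65 in lung CD244- cells, and 9 in thymus CD244+ and 12 in thymus CD244- cells.

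The share of all molecules that were Dusp1 was 20.4 times as high in lung as in thymus CD244+ libraries (exact 95% interval 10.5 to 45.7) and 11.4 times as high in CD244- libraries (6.13 to 23.3). Thymus CD244+ library 3 held 6 of the 9 molecules of its group, and without it the first ratio was 43.2 (14.5 to 212). All ratios with a library left out, here and below, were chosen after seeing the data. These intervals, here and below, pool the 3 libraries of a group and cover counting error only. On the log2(units + 1) scale, which understates the change of genes at low levels, the lung was higher by 3.27 ± 0.33 in CD244+ cells (SE, limma adjusted p = 3.45e-14) and by 2.47 ± 0.33 in CD244- cells (limma adjusted p = 4.12e-09). Across all tested genes the median of the same difference was -0.27 and -0.29 in deposited units, and -0.01 and -0.04 with all libraries at 1 common total, where the Dusp1 differences were 3.61 and 2.84. Both Dusp1 calls held under every alternative run, 25 in CD244+ and 24 in CD244- cells, at log2 differences of 1.92 to 4.34 and 1.48 to 3.39. In the CD244- comparison the macrophage markers were near 0 on both sides. In the lung libraries 5 of 15 had any signal, with Lyz2, Cd14, C1qa, C1qb, C1qc, Mrc1, Apoe, Adgre1, Cd68 and Marco at 0, and none of the list was called. Lung epithelium markers were not at 0 there. Their sum over 7 genes was 1.66 to 3.37 molecules per 10000 in lung CD244- and 0 in thymus CD244- libraries, and Scgb1a1, a secretory protein of airway cells and the 1 gene of the list tested, was higher in lung (1.97 ± 0.40, limma adjusted p = 0.000124). Of 10 tested T cell defining genes, the receptor chains Cd3e (-0.93 ± 0.29, limma adjusted p = 0.0206) and Cd3g (-1.16 ± 0.28, adjusted p = 0.00166) were lower in deposited units. As molecules per 10000, the 10 genes summed to 27.9 to 34.4 in lung CD244- and 27.0 to 28.9 in thymus CD244- libraries. The T cell receptor complex genes summed to 45.1 to 51.9 in lung CD244- and 38.4 to 41.1 in thymus CD244- libraries. The part of these in the Dusp1 and other CD244- tissue differences was not tested. In the CD244+ comparison all 13 tested macrophage markers, all 5 tested MHC class II genes and Scgb1a1 were higher in lung, and 7 of the 10 T cell defining genes were lower. With lung CD244+ library 1 alone the Dusp1 difference from thymus was 3.34 (limma adjusted p = 7.42e-06). Ergic1, which overlaps Dusp1 on the opposite strand, reached at most 3.39 units in any library and averaged 0.720 in the lung. Whether counting used the strand is not given in the sources used here.

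Between lung CD244+ and CD244- cells, Dusp1 was 1.36 times as abundant by molecules (1.004 to 1.85), and its log2 difference of 0.41 ± 0.33 did not pass the threshold (limma adjusted p = 0.549). The groups did not overlap, with all 3 CD244+ libraries higher, as for 11.6% of all tested genes. In the thymus the log2 difference was -0.39 ± 0.33 (limma adjusted p = 1).

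Dusp2 (chr2:127336159-127338376, plus strand), a nuclear phosphatase of activated lymphocytes that acts on ERK and p38, had 4.75, 7.73 and 6.02 units in lung CD244+ libraries and 3.26, 5.13 and 7.21 in lung CD244- libraries. In the thymus it had 10.5, 13.1 and 7.60 units in CD244+ libraries and 12.8, 12.9 and 11.2 in CD244- libraries. The lung CD244- libraries were all below the thymus CD244- libraries, while in CD244+ cells the highest lung library (7.73) was above the lowest thymus library (7.60). Group means were 6.17 ± 1.5 units in lung CD244+, 5.20 ± 1.98 in lung CD244-, 10.4 ± 2.77 in thymus CD244+ and 12.3 ± 0.942 in thymus CD244- cells (SD, n = 3 each). Levels were highest in thymus CD244- and lowest in lung CD244- cells, and within each tissue the 2 groups overlapped.

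In CD244- cells Dusp2 was lower in lung by a log2 difference of -1.15 ± 0.28 (limma adjusted p = 0.00184). In molecules its share in lung was 0.594 of that in thymus (25 and 89 molecules; interval 0.365 to 0.934). Because each thymus library was scaled to a total 1.39 times that of each lung library, the difference in units includes that scaling. With all libraries at 1 common total it was -0.73 and no longer past the threshold (limma adjusted p = 0.125). The call was also lost with molecules thinned to the shallowest library (-0.53, adjusted p = 0.570) and by edgeR (-0.76, adjusted p = 0.150). In CD244+ cells the difference was -0.66 ± 0.28 (limma adjusted p = 0.102), and the share of molecules in lung was 0.806 of that in thymus (45 and 75 molecules; 0.544 to 1.18). Dusp2 did not pass the threshold between CD244+ and CD244- cells in the lung (0.24 ± 0.28, limma adjusted p = 0.710) or in the thymus (-0.24 ± 0.28, limma adjusted p = 1).

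Set against each other within a library, which cancels the scaling and the depth, Dusp1 made up 80.3%, 69.1% and 75.8% of the Dusp1 and Dusp2 molecules in lung CD244+ libraries and 82.8%, 72.4% and 62.5% in lung CD244- libraries. In the thymus that share was 9.68%, 0% and 27.3% in CD244+ libraries and 8.57%, 11.1% and 16.7% in CD244- libraries. The lung and thymus ranges did not overlap, and the CD244+ and CD244- ranges overlapped in both tissues. Pooled, Dusp1 was 137 of 182 molecules (75.3%, exact 95% interval 68.3 to 81.4) in lung CD244+, 65 of 90 (72.2%, 61.8 to 81.1) in lung CD244-, 9 of 84 (10.7%, 5.02 to 19.4) in thymus CD244+ and 12 of 101 (11.9%, 6.29 to 19.8) in thymus CD244- cells. The 7 members together took 15.3 ± 1.46 molecules per 10000 in lung CD244+, 14.1 ± 0.144 in lung CD244-, 6.15 ± 1.09 in thymus CD244+ and 7.56 ± 0.338 in thymus CD244- cells (SD, n = 3 each). Of these, Dusp1 alone took 9.56, 7.09, 0.493 and 0.625 in the same order of groups.

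**Figure D2:**
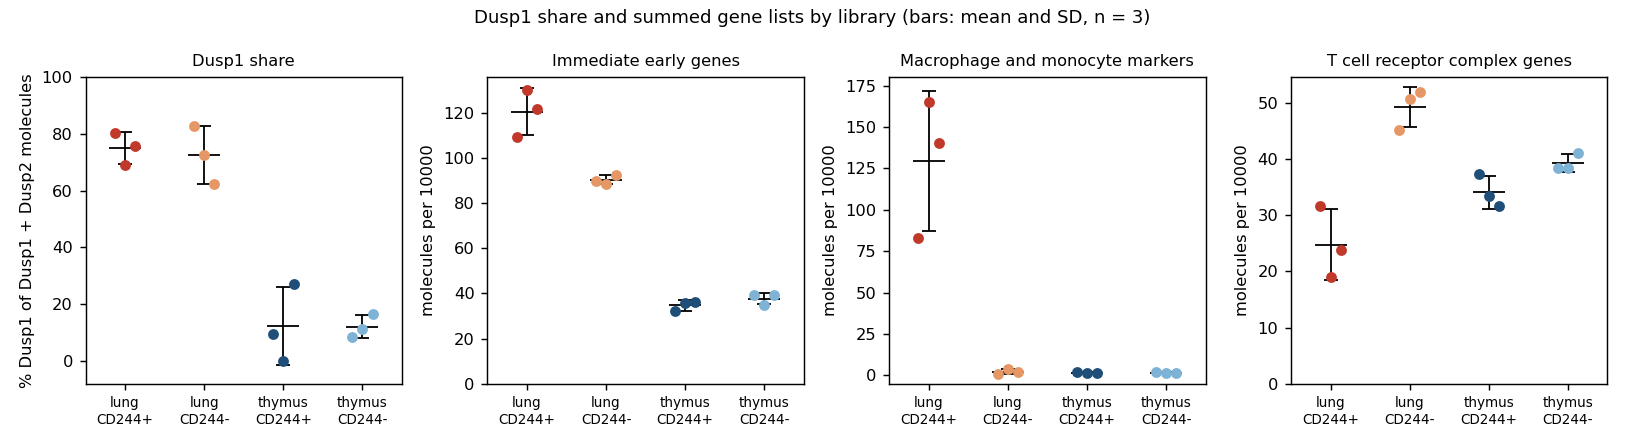
Share of Dusp1 among Dusp1 and Dusp2 molecules (percent) and summed molecules per 10000 of the immediate early genes, the macrophage and monocyte markers and the T cell receptor complex genes, by library of lung CD244+, lung CD244-, thymus CD244+ and thymus CD244- cells; bars are the mean and SD (n = 3). The Dusp1 share is 62.5% or more in all lung libraries and 27.3% or less in all thymus libraries, while the macrophage sum is 83.1 or more in the lung CD244+ libraries and at most 3.65 in the other groups.

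Dusp4 (chr8:34807297-34819894, plus strand) and Dusp5 (chr19:53529109-53542431, plus strand), the other nuclear inducible members, were listed at 0 in all 12 libraries. With 621158 molecules over the 12 libraries together, a count of 0 allows a mean level of up to 4.83 molecules per 1000000. The limit for a single group is higher, since the lung CD244- group, the shallowest, held 92037 molecules. Of all genes in the table, 50.7% were likewise at 0 throughout, and of the 24 genes in it named Dusp with a number, 8 were.

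Dusp10 (chr1:184013302-184075636, plus strand), the p38 and JNK phosphatase, was the member past the threshold between the 2 lung groups. It had 2.77, 0.455 and 0.752 units in lung CD244+ libraries and 4.56, 5.77 and 7.21 units in lung CD244- libraries, so all 3 CD244+ libraries were below all 3 CD244- libraries, as for 9.75% of tested genes. Thymus CD244+ libraries had 0.375, 0 and 0 units and thymus CD244- libraries 0, 0 and 0.447, that is 1 molecule in each thymus group. Group means were 1.33 ± 1.26 units in lung CD244+, 5.85 ± 1.33 in lung CD244-, 0.125 ± 0.216 in thymus CD244+ and 0.149 ± 0.258 in thymus CD244- cells (SD, n = 3 each). Levels were highest in lung CD244- and next in lung CD244+ cells, and the 2 thymus groups did not differ beyond their spread.

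Dusp10 fell in lung CD244+ relative to lung CD244- cells by a log2 difference of -1.67 ± 0.40 (limma adjusted p = 0.00180). Its share of molecules was 0.230 of that in CD244- cells (10 and 28 molecules; interval 0.0997 to 0.488), and 0.105 without lung CD244+ library 1 (0.0204 to 0.340). Macrophage and MHC class II markers went the opposite way, all 13 tested of 15 and all 5 tested of 6 being higher in lung CD244+ cells. The summed T cell receptor complex genes were lower there. Their part in the Dusp10 difference was not tested. With libraries brought to equal sums of those receptor genes the difference was -1.10 (limma adjusted p = 0.0460). Library 1 of lung CD244+, which held 7 of the 10 Dusp10 molecules and 15 of the 17 Cxcr6 molecules of its group, gave -0.84 when set alone against the lung CD244- libraries (limma adjusted p = 0.608, the lone library assumed to vary like the other groups). The same comparison by edgeR on the 9 libraries with verified whole molecules gave -1.57 (adjusted p = 0.115).

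Against the thymus, Dusp10 rose in lung CD244- cells by 2.58 ± 0.40 on the log2 scale (limma adjusted p = 3.82e-07). The ratio of molecule shares was 59.2 (28 and 1 molecules; 9.78 to 2419), or 38.6 without thymus CD244- library 1 and 38.8 without library 2. The call held under all 23 alternatives run. In CD244+ cells the difference from thymus was 0.94 ± 0.40 (limma adjusted p = 0.111; 10 and 1 molecules, ratio 13.4, interval 1.91 to 583, and 6.13 without lung CD244+ library 1, interval 0.492 to 322), with all lung libraries above all thymus libraries, as for 8.41% of tested genes. It passed the threshold there by edgeR (adjusted p = 0.0126), with library 1 alone (1.76, limma adjusted p = 0.0402) and scaled to those receptor genes (1.39, limma adjusted p = 0.0159). In the thymus its CD244 difference was -0.02 ± 0.40 (limma adjusted p = 1).

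Whether CD244 went with a different Dusp10 level in lung than in thymus was tested as an interaction. The lung CD244 difference minus the thymus one was -1.64 ± 0.57 (limma adjusted p = 0.101; unadjusted p = 0.00471). By limma 0 of 5 members passed, with 1 at an unadjusted p under 0.05, and 0 of 4 passed by edgeR, where 3.27% of all tested genes passed by limma. Without lung CD244+ library 1 it was -2.06 (limma adjusted p = 0.0263), and with a pseudocount of 5 it was -0.78 (adjusted p = 0.0118). For Dusp1 the same term was 0.81 ± 0.46 (limma adjusted p = 0.490), and when scaled to receptor genes it was 1.63 (adjusted p = 0.0301).

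The count of members called between the lung groups depended on that scaling. With libraries brought to equal sums of those receptor genes, 4 of 5 members passed: Dusp10 remained lower in CD244+ cells, and Dusp1 (1.39, limma adjusted p = 0.00186), Dusp2 (1.14, adjusted p = 0.00436) and Dusp11 (1.20, adjusted p = 0.0209) were higher. The same scaling moved the median difference of all tested genes between lung CD244+ and CD244- cells to 0.59, against -0.01 in the deposited units. Of the 5138 tested genes, 1362 were then called higher and 21 lower, against 288 higher and 145 lower in deposited units.

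**Figure D3:**
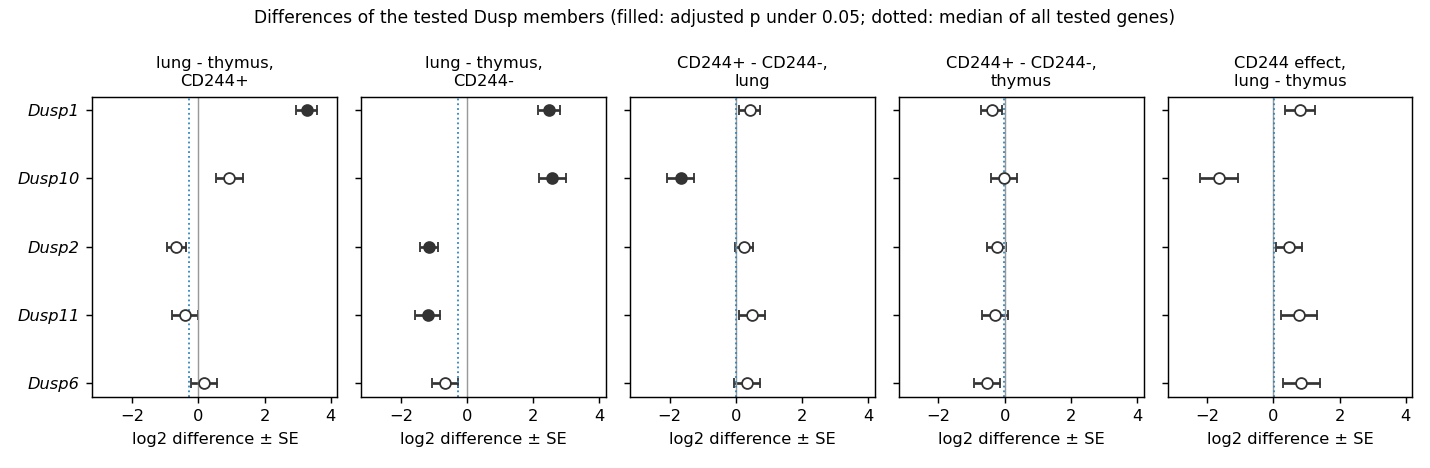
Log2 differences of the 5 tested members (rows) with their SE from limma in 5 panels: lung minus thymus in CD244+ and in CD244- cells, CD244+ minus CD244- in lung and in thymus, and the lung minus the thymus CD244 difference. Filled points have an adjusted p under 0.05 and the dotted line is the median of all 5138 tested genes; Dusp1 is filled at 3.27 and 2.47 in the tissue panels, and in the lung CD244 panel only Dusp10 is filled, at -1.67.

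Dusp6 (chr10:99263231-99267489, plus strand), the cytosolic ERK phosphatase, was near the limit of detection. Lung CD244+ libraries had 1.58, 0.455 and 0.376 units and lung CD244- libraries 0.651, 0 and 0.601, against 0.749, 0.424 and 0.475 in thymus CD244+ and 1.20, 1.61 and 0.895 in thymus CD244- libraries. No group held more than 9 molecules, and 3 molecules in 1 library correspond to 1.12 to 1.95 units. The thymus CD244- libraries were all above both the lung CD244- and the thymus CD244+ libraries, but neither difference passed the threshold (lung minus thymus in CD244- cells -0.68 ± 0.39, limma adjusted p = 0.280; CD244+ minus CD244- in thymus -0.52 ± 0.39, adjusted p = 1). In these deposited units, 20.7% of all tested genes were lower without overlap in the first and 6.42% in the second comparison. As shares of molecules, the lung and thymus CD244- libraries overlapped in Dusp6. A difference in Dusp6 was not detectable at this depth.

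Dusp11 (chr6:85942268-85961667, minus strand), the RNA phosphatase, had 4.35, 1.82 and 2.26 units in lung CD244+ and 3.26, 3.21 and 0 in lung CD244- libraries, against 2.25, 6.36 and 3.80 in thymus CD244+ and 4.38, 5.23 and 5.37 in thymus CD244- libraries. In units, the lung CD244- libraries were all below the thymus CD244- libraries, and the CD244+ groups of the 2 tissues overlapped. As shares of molecules, the CD244- groups overlapped as well. In CD244- cells it fell in lung, with a log2 difference of -1.19 ± 0.39 (limma adjusted p = 0.0303). The call rested on lung CD244- library 3, where no molecule was seen, since without it the difference was -0.50 (limma adjusted p = 0.457). The call was also lost at a common total (-0.88, adjusted p = 0.235), without thymus CD244- library 1, 2 or 3 (adjusted p = 0.0607, 0.0871 and 0.0971) and by edgeR (adjusted p = 0.447). The ratio of molecule shares was 0.587 (10 and 36 molecules; 0.260 to 1.21), and 0.903 without lung CD244- library 3 (0.400 to 1.86). In CD244+ cells the tissues differed by -0.41 ± 0.39 (limma adjusted p = 0.545), and CD244+ minus CD244- was 0.49 ± 0.39 in lung (adjusted p = 0.550) and -0.30 ± 0.39 in thymus (adjusted p = 1).

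Of 30 other DUSP and related phosphatase genes, 22 had signal in some library and 8 were tested. Dusp3, an atypical phosphatase that acts on ERK and JNK, had 2.38, 2.27 and 3.01 units in lung CD244+ libraries and 0 in the 3 lung CD244- libraries. It rose in lung CD244+ cells by a log2 difference of 1.82 ± 0.39 (limma adjusted p = 0.000386). Its share of molecules was 4.08-fold higher when the lung CD244- group was set at 3 molecules. The exact interval on the counts, 19 and 0 molecules, had a lower limit of 3.01. Against thymus CD244+ cells Dusp3 rose by 1.46 ± 0.39 (limma adjusted p = 0.00406; 0.0836 with library 1 alone), and Ptp4a1, a membrane-anchored phosphatase of the PRL group, by 1.58 ± 0.39 (adjusted p = 0.00145; 0.156 with thinned molecules). Between tissues in CD244- cells 0 of the 8 passed by limma, with 2 at an unadjusted p under 0.05, and 0 of 3 by edgeR. In molecules, the Ptp4a1 share there was 3.09 times as high in lung as in thymus (interval 1.45 to 6.80). Dusp3 had 0 molecules in lung and 1 in thymus CD244- libraries. The macrophage sum of the lung CD244+ libraries stood beside the Dusp3 differences and the Ptp4a1 difference in CD244+ cells, and its part in them was not tested. The median over the 8 was 0.26 between the lung groups and -0.02 between tissues in CD244+ cells, against -0.01 and -0.27 over all tested genes.

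**Figure D4:**
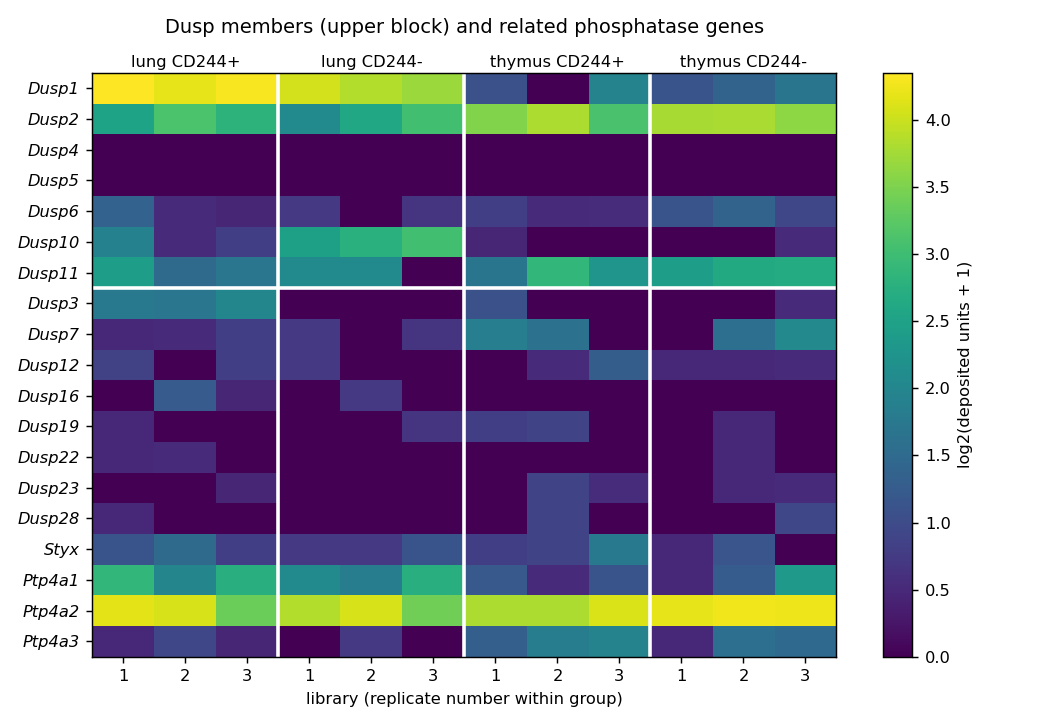
Log2(deposited units + 1) of the 7 members (upper block) and 12 related phosphatase genes (lower block) in each of the 3 libraries of lung CD244+, lung CD244-, thymus CD244+ and thymus CD244- cells. Dusp1 is bright in all lung libraries, Dusp10 in the lung CD244- libraries, and Dusp3 has signal in all 3 lung CD244+ libraries and none in lung CD244- libraries.

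Of the kinases that these phosphatases act on and the kinases above them, the shares past the threshold were set beside those of all tested genes. Those were 14.9% between tissues in CD244+ cells, 10.7% between tissues in CD244- cells and 8.43% between the lung groups. Of 13 MAP kinase genes, 4 were tested, and only Mapk6, an atypical MAP kinase, passed, at 1.15 ± 0.42 between lung and thymus CD244+ cells (limma adjusted p = 0.0472). Of 27 MAP kinase kinases and upstream genes, 21 were tested. Map2k3, which activates p38, was higher in lung CD244+ than CD244- cells by 1.23 ± 0.40 (limma adjusted p = 0.0378). Map2k4, which activates JNK and p38, was lower in lung than thymus CD244- cells (-1.25 ± 0.40, adjusted p = 0.0292). Of 21 substrates and effectors, 14 were tested. Nfatc2, a transcription factor of activated T cells (-1.33 ± 0.39, limma adjusted p = 0.0111) and the ERK-activated kinase Rps6ka1 (-1.07 ± 0.36, adjusted p = 0.0301) were lower in lung than thymus CD244+ cells. The p38-activated kinase Mapkapk3 was lower in lung than thymus CD244- cells (-1.22 ± 0.41, limma adjusted p = 0.0390). The list medians were 0.15 for the MAP kinases between tissues in CD244+ cells, 0.08 for the upstream genes between the lung groups and -0.15 between tissues in CD244- cells. For the substrates they were -0.28 between tissues in CD244+ and -0.08 in CD244- cells. Over all tested genes they were -0.27 between tissues in CD244+ and -0.29 in CD244- cells, and -0.01 between the lung groups. Each of these calls was lost under several alternatives, from 6 of 23 for Nfatc2 to 12 of 22 for Mapkapk3.

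Of 20 other negative regulators of the pathway, 14 were tested. Past the threshold were 3 of 14 between tissues in CD244- cells, where 10.7% of all tested genes were, 2 of 14 between tissues in CD244+ cells (14.9%) and 4 of 14 between the lung groups (8.43%). Ptpn6, a tyrosine phosphatase that dampens T cell receptor signalling, had 25 molecules in lung CD244+ and 1 in lung CD244- cells, and 59 in thymus CD244+ and 71 in thymus CD244- cells. It fell in lung relative to thymus CD244- cells, with a log2 difference of -3.18 ± 0.35 (limma adjusted p = 4.33e-12), as did Ptpn7, a phosphatase of ERK and p38 in leukocytes (-2.14 ± 0.41, adjusted p = 5.57e-05), and the Ras inactivator Rasa1 (-1.83 ± 0.37, adjusted p = 0.000144). These 3 calls held under every alternative run. Between lung CD244+ and CD244- cells, Ptpn6 (1.89 ± 0.35, limma adjusted p = 2.38e-05) and the Ras and Raf inhibitor Spred1 (1.73 ± 0.39, adjusted p = 0.000873) were higher, and the adaptor Dok2 (-1.51 ± 0.34, adjusted p = 0.000762) and the diacylglycerol kinase Dgkz (-1.36 ± 0.38, adjusted p = 0.00970) were lower. With lung CD244+ library 1 alone, Ptpn6 (adjusted p = 0.0526), Spred1 (0.237) and Dgkz (0.422) no longer passed by limma. Dok2 was lost when scaled to those T cell genes (adjusted p = 0.119). The macrophage markers rose in the same lung comparison, and their part in these differences was not tested. In CD244+ cells, Spred1 was higher (1.39 ± 0.39, limma adjusted p = 0.00703) and Dok2 lower (-0.98 ± 0.34, adjusted p = 0.0367; 0.915 with thinned molecules) in lung than in thymus. The Spred1 call was lost under 3 of 23 alternatives and the Dok2 call under 12 of 25. As a share of molecules, Dok2 in lung was 0.563 of that in thymus (13 and 31 molecules, interval 0.271 to 1.11). The list medians were -0.13 in CD244- and -0.62 in CD244+ cells between tissues, and 0.11 between the lung groups, against -0.29, -0.27 and -0.01 over all tested genes.

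Immediate early genes, the class of rapidly induced genes that Dusp1 belongs to, were summed over 29 genes other than the members. The sum was 110 to 130 molecules per 10000 in lung CD244+ and 88.6 to 92.6 in lung CD244- libraries, against 32.0 to 36.4 in thymus CD244+ and 34.9 to 39.1 in thymus CD244- libraries. All lung libraries were above all thymus libraries, as for Dusp1. Of the 27 tested, 6 rose and 1 fell in lung relative to thymus CD244- cells, where 2.18% of all tested genes were higher and 8.52% lower, with a median difference of 0.26 against -0.29 over all genes. Among them, Junb, an AP-1 subunit, had 143 molecules in lung and 27 in thymus (2.74 ± 0.26, limma adjusted p = 1.40e-14). Tnfaip3, an inhibitor of NF-kappaB signalling, had 100 and 8 (3.39 ± 0.34, adjusted p = 5.82e-14). In CD244+ cells 18 rose and 1 fell, where 5.27% of all tested genes were higher and 9.61% lower, with a median of 1.51 against -0.27 over all genes. There Fos, the AP-1 partner of Jun proteins, had 132 molecules in lung and 0 in thymus. Its share was 59.1-fold higher when the thymus group was set at 3 molecules, and the exact interval on the counts had a lower limit of 47.4. The macrophage markers rose in this CD244+ comparison as well, and their part in these counts was not tested.

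Within the lung, 10 of these 27 genes rose in CD244+ cells and 1 fell, where 5.61% of all tested genes were higher and 2.82% lower, with a median of 0.77 against -0.01 over all genes. Fos had 132 molecules in lung CD244+ and 5 in lung CD244- cells (3.34 ± 0.40, limma adjusted p = 1.15e-10). Zfp36, which promotes decay of cytokine mRNAs, had 90 and 5 (2.68 ± 0.36, adjusted p = 9.70e-09). The macrophage markers rose in the same comparison (13 of 13 tested), and their part was not tested. Between thymus CD244+ and CD244- cells 0 of 27 passed by limma, with 1 at an unadjusted p under 0.05, and 0 of 19 by edgeR.

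Across the 12 libraries, the genes whose deposited units ran most like a member were found by Pearson correlation among the 577 or 578 genes that averaged at least 5 units. They were Junb (0.93), Rn4.5s (0.92) and Crem (0.90) for Dusp1. They were Sh2d2a (0.91), Vps37b (0.90) and Bcl2l11 (0.88) for Dusp10. For Dusp2 they were Zc3h11a (0.93), Elob (0.91) and Ppia (0.90), for Dusp11 Ddx6 (0.88), Fli1 (0.81) and Arhgdia (0.80), and for Dusp6 Ugcg (0.84), Ndufa3 (0.74) and Ndfip1 (0.71). Dusp1 and Dusp2 ran opposite to each other (r = -0.86), as did Dusp2 and Dusp10 (-0.76), while Dusp1 and Dusp10 ran together (0.71). The 12 libraries fall into 2 tissues scaled to different totals, which all these correlations share, so they describe these libraries and carry no test.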

How the data were processed

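Per the labels' protocols, libraries of 100 sorted cells carried molecular barcodes in an oligo-dT primer. Per the submitters' processing notes, STAR was used with mm10. Its version, the counting step and the scaling are not given in the sources used here. The deposited values are a signal in units that the authors scaled. Within a library, 94.3% to 95.9% of nonzero values were whole multiples of 1 constant (tolerance 1e-06), and all 53 nonzero values of the 7 members were. Dividing by that constant gave molecules, whose whole steps could be verified in 9 of 12 libraries.

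The labels gave the 4 groups by tissue and CD244. The fit used log2(value + 1) of the 5138 genes above 1 in at least 3 libraries, in one limma 3.58.1 model of the 4 groups (trend and robust, R 4.3.3). P-values are two-sided, adjusted by Benjamini-Hochberg over all 5138, with a threshold of 0.05. The spread behind each SE is pooled over the 4 groups and drawn largely from genes of like level, not from a gene's own libraries. Replicates of lung CD244+ cells differed more, with a chi-square of molecules per degree of freedom of 1.65 to 1.70. In the other groups it was 1.09 to 1.23, and the pooled spread does not follow this difference. A test for raw counts was not the main one, since the values are not raw counts. Alternatives were edgeR 4.0.16 on molecules of the 9 libraries, other scalings, filters, pseudocounts, weights, a replicate block and each library left out in turn. Intervals on molecules are exact 95% binomial (scipy 1.17.1), and a count of 0 was bounded at 3 molecules. With 3 libraries a side, a permutation test alone could reach no p under 0.1. The members and the lists were chosen with earlier results of these data known. Other genes were named where they passed the threshold, up to 4 per list and comparison with the smallest p. Gene positions are from GENCODE (mm10) and promoters from RefSeq (GRCm38.p6). The fits were also run on simulated data with 1 common total and the same spread in all groups. That run leaves out the different totals of the tissues, so it cannot speak to calls that depend on the scaling.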

Additional observations from a re-analysis of the deposited data

Results flagged for a closer look

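The interaction term, the CD244 difference in lung minus that in thymus (log2, limma), passed the threshold for 3.27% of all tested genes. These included 7 of 27 tested immediate early genes and 1 of 14 other negative regulators, Ptpn6. The term is given here for Ptpn6 and for the 4 immediate early genes with the smallest p. It was 3.37 for Egr1 (6.66 ± 2.0 units in lung CD244+, 0.614 ± 0.601 in lung CD244-, 0.283 ± 0.250 in thymus CD244+ and 1.92 ± 1.5 in thymus CD244- cells; SD, n = 3 each), an immediate early transcription factor downstream of ERK. For Zfp36 it was 3.09, with 90 molecules in lung CD244+, 5 in lung CD244-, 12 in thymus CD244+ and 17 in thymus CD244- cells. For the tyrosine phosphatase Ptpn6 it was 2.24, with 25, 1, 59 and 71 molecules in the same groups. Fos (132, 5, 0 and 0 molecules) and Atf3, a stress-induced transcription factor (52, 1, 0 and 0 molecules), were at 0 in all 6 thymus libraries. No CD244 difference could be measured for them in thymus, and their terms, 3.34 and 2.71, equal their lung differences and say nothing about the thymus. In all 5 the lung CD244+ libraries were above the lung CD244- libraries. The macrophage and monocyte sum stood at 83.1 to 165 molecules per 10000 in lung CD244+ libraries, against 1.01 to 3.65 in lung CD244- libraries, and its part in these terms was not tested. By edgeR the terms of Egr1, Fos and Atf3 did not pass (adjusted p = 0.0827, 0.9997 and 0.9997), and with lung CD244+ library 1 alone that of Ptpn6 did not by limma (adjusted p = 0.108), while that of Zfp36 passed under all 24 alternatives run.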

How the results depend on the processing

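The number of members past the threshold moved as follows. Between lung and thymus CD244- cells, where 4 members passed, it was 2 at a common total, 2 with thinned molecules and 2 by edgeR, and 3 to 4 with 1 library left out. By edgeR 8.75% of all 1154 genes tested were higher there and 9.71% lower. Between lung and thymus CD244+ cells, where 1 passed, it was 2 scaled to T cell receptor complex genes, 2 under the stricter filter, 2 with library 1 alone and 2 by edgeR. Between lung CD244+ and CD244- cells, where 1 passed, it was 4 scaled to T cell receptor complex genes, 0 under the stricter filter (a value of 5 in 3 libraries), under which Dusp10 is not tested, 0 with library 1 alone and 0 by edgeR. For the interaction, where 0 passed, it was 1 with that scaling, 1 with a pseudocount of 5, and 0 to 1 with 1 library left out. Between tissues in CD244+ cells, 12.4% of all tested genes were higher and 1.46% lower with that scaling. Under the stricter filter, which tested 3 members, 10.7% of 922 genes were higher and 38.4% lower. By edgeR 15.6% of 1154 were higher and 9.88% lower. Between the lung groups, 1362 genes were higher and 21 lower with that scaling. The stricter filter gave 115 and 135, and edgeR 127 and 46. For the interaction the scaling gave 351 and 3, and the pseudocount 158 and 38.

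Differences that changed sign were all short of the threshold. For lung minus thymus in CD244+ cells, scaling to T cell receptor complex genes gave 0.20 for Dusp2 and 0.32 for Dusp11, thinning gave 0.18 and library 1 alone 0.14 for Dusp11, and Dusp6 ranged from -0.12 to 0.33 with 1 library left out. In CD244- cells, thinning gave 0.10 for Dusp6. For CD244 in lung, library 1 alone gave -0.0575 for Dusp2, and with 1 library left out Dusp2 ranged from -0.0066 to 0.47 and Dusp11 from -0.21 to 0.84. For CD244 in thymus, Dusp10 was 0.28 with thinning, 0.0071 with sample weights and -0.18 to 0.15 with 1 library left out, Dusp1 was -0.86 to 0.11 with 1 left out, and Dusp11 was 0.0877 by edgeR. The Dusp10 interaction was 0.44 by edgeR, where the thymus groups hold 0 or 1 molecule. The cause of the other changes was not tested.

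Libraries with the same replicate number did not deviate together (18 pairs, r from -0.03 to 0.02, 0 over 0.1; 5 of 18 correlated best with their own number). With the replicate block the counts were 4, 1, 1, 0 and 0 for lung against thymus in CD244- and CD244+ cells, CD244 in lung and in thymus, and the interaction, and no member's call changed. Depth limits the low members: 3 molecules in a library are 1.12 to 1.95 units, above most Dusp6 values and all thymus Dusp10 values. Intervals cover counting error only, and a floor covers only that of the count of 0.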
